A study of Homo sapiens with 6 samples.

Results

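Hair keratins and their partner proteins were followed through transcripts of 6 genes, KRT81, KRT83, KRT86, KRT34, KRTAP2-3 and KRTAP2-4, among 62700 genes in the deposited count table. The genes were taken by symbol, and they had been chosen because earlier results of these same libraries were known, so their difference between the groups is described here with no test. Poly(A)-selected RNA of SAS cells, a line derived from a human squamous cell carcinoma of the tongue, was sequenced after transfection of an siRNA. The libraries were 3 with an siRNA against IGF2BP1 (siIGF2BP1, genotype label IGF2BP1 knockdown) and 3 with a control siRNA (siC, genotype label WT). IGF2BP1 binds mRNAs in the cytoplasm and is known to protect many of them from decay, and the stated question of the study is whether it shields YAP1 from repression by Hippo signalling. All 6 libraries come from the same cell line, and the labels give neither the siRNA sequence, nor the time after transfection, nor whether replicates were separate cultures. A p-value therefore reflects library-to-library spread alone, and that spread may be technical.

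Keratins build the intermediate filaments of epithelial cells as obligate pairs of an acidic type I and a basic type II chain. Hair keratins are the cysteine-rich subset that fills the cortex and cuticle of the hair shaft, where they are embedded in a matrix of keratin-associated proteins (KRTAP genes) and joined to it by disulfide bonds. Type II hair keratins lie in the keratin cluster of chromosome 12, and type I hair keratins and many KRTAP genes lie in that of chromosome 17. Oral squamous epithelium is known for KRT5 and KRT14 in its basal layer and not for hair keratins, although single hair keratin transcripts are found in carcinomas.

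The genes form groups of close sequence relatives, which matters for how reads were divided among them. The coding sequences of KRTAP2-3 and KRTAP2-4 (GENCODE release 29) are both 387 bases long and differ at a single base, T333C, where KRTAP2-3 is given first and positions are counted from 1 at the start codon. The surrounding stretch, coding positions 313 to 353, is shown because this base is the only one in the coding sequence that tells the pair apart, with the differing base in capitals.
KRTAP2-3: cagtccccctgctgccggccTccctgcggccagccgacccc
KRTAP2-4: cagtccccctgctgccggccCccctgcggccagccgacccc
Of all 100-base windows of the transcript, 34.02% in KRTAP2-3 and 48.1% in KRTAP2-4 also occur in another annotated gene. KRTAP2-1, which differs from KRTAP2-3 at 2 coding bases, and KRTAP2-2 are among those genes. The read length is not given in the sources used here, and the 100-base window is an example.

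KRT81, KRT83 and KRT86 are also near copies of each other. KRT81 has 94.2% identity with KRT86 over 1457 aligned coding bases and 93.3% with KRT83 over 1467. The following 60-base stretch, coding positions 1249 to 1308 of KRT81 and KRT86 and 1264 to 1323 of KRT83, is the gap-free window in which they differ most, with bases that differ from KRT81 in capitals (7 in KRT83 and 14 in KRT86).
KRT81: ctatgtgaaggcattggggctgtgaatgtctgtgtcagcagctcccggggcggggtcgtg
KRT83: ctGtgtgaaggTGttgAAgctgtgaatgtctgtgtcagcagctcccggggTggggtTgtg
KRT86: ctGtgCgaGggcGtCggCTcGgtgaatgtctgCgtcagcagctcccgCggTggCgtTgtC
In the earlier part of the coding sequence, 60 bases from position 223 of KRT81 (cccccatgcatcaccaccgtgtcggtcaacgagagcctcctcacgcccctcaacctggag) are the same in all 3 genes. The shared 100-base windows were 29.4% of those of the KRT81 transcript with KRT86, and 25.4% of those of the KRT86 transcript with KRT81, while KRT83 had 0 windows of that length in common with another gene. How reads that map to more than 1 gene were counted is not given in the sources used here, so the division of reads between KRT81 and KRT86, and between KRTAP2-3 and KRTAP2-4, is uncertain.

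Library totals lay between 17918496 and 26675064 counted reads, and 3 reads, the limit that a count of 0 allows, corresponded to 0.115 to 0.165 CPM (counts per 1e6 reads of the library, scaled between libraries by TMM factors). IGF2BP1 itself had 29, 25 and 21 reads in knockdown libraries 1 to 3, against 185, 223 and 292 in control libraries 1 to 3 (log2 fold change -3.07, edgeR adjusted p = 4.56e-06). Markers of squamous epithelium, listed with the general epithelial markers KRT8, KRT18 and EPCAM, were all detected. Of the 10 tested 6 fell and 0 rose by edgeR, beside 6.66% of all tested genes called lower and 6.27% called higher. The 4 not called were KRT17, TP63, SFN and EPCAM, with log2 fold changes of -0.01, -0.01, -0.04 and 0.12. Over all 10 the median log2 fold change was -0.60. Their summed level ranged from 12829 to 13788 CPM in knockdown libraries and from 23498 to 25464 CPM in control libraries. KRT8 and KRT18 entered that sum with control means of 8460 and 6222 CPM. CDH1, the adhesion molecule E-cadherin, was at 45.4 ± 6.25 CPM after knockdown and 138 ± 17.3 CPM in controls (SD, n = 3 each; log2 fold change -1.60, edgeR adjusted p = 7.11e-07), and the other 5 that fell were keratins. The part of this shift in the levels of hair keratins and KRTAP genes was not tested. Among markers of other cell types, 4 of 7 melanocyte markers (MLANA, TYR, DCT and TYRP1) and 4 of 8 fibroblast markers had 0 reads in all 6 libraries. The same held for 3 of 6 leukocyte markers, PTPRC among them, and for 1 of 5 endothelial markers, KDR. The highest melanocyte, leukocyte and endothelial markers were PMEL, CD14 and VWF, and none was called. Their means were 4.19, 13.1 and 6.52 CPM after knockdown and 4.25, 17.8 and 4.45 CPM in controls. For CD14 the log2 fold change was -0.44 (edgeR adjusted p = 0.0944). The summed level of the melanocyte markers ranged from 4.68 to 5.61 CPM in knockdown libraries and from 4.25 to 5.72 CPM in control libraries. The corresponding ranges were 5.72 to 9.24 CPM and 6.37 to 8.50 CPM for fibroblast markers, 12.1 to 14.2 CPM and 17.1 to 18.4 CPM for leukocyte markers, and 6.34 to 14.2 CPM and 6.33 to 8.56 CPM for endothelial markers. Of the 3 tested fibroblast markers, PDGFRB was called higher, with 28, 52 and 36 reads in knockdown libraries 1 to 3 against 15, 18 and 10 in control libraries 1 to 3 (log2 fold change 1.52, edgeR adjusted p = 0.0491), and the call held in 4 of 12 alternatives. COL1A1 and COL1A2 were not called, with log2 fold changes of -0.29 and -0.86. In a bulk sample, a change in the number of cells that express a gene and a change in the amount per cell cannot be told apart.

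KRT81, a type II keratin of the hair cortex (ENSG00000205426; GRCh38 chr12:52285913-52291534, minus strand), was the dominant transcript of the group. Its counts were 5200, 7033 and 8058 reads in knockdown libraries 1 to 3, against 2219, 2567 and 2346 in control libraries 1 to 3. Scaled, these were 286, 308 and 309 CPM after knockdown and 97.2, 111 and 90.02 CPM in controls. Every knockdown library lay above every control library, by well over the spread within either group, and the means were 301 ± 13.1 CPM after knockdown and 99.3 ± 10.4 CPM in controls (SD, n = 3 each). Knockdown over control, this is a log2 fold change of 1.60 (SE 0.11) and a ratio of means of 3.03.

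KRT86, another type II hair cortex keratin (ENSG00000170442; chr12:52249300-52309163, plus strand), was less abundant and was also higher after knockdown. It stood at 15.9, 16.1 and 17.1 CPM in knockdown libraries 1 to 3 and at 5.83, 5.94 and 9.13 CPM in control libraries 1 to 3. The groups did not overlap, and control 3 stood apart from the other controls. The log2 fold change was 1.23 (SE 0.21), and 1.46 without control 3. As a share of the reads of both genes, KRT86 took 5.27%, 4.99% and 5.23% in knockdown libraries 1 to 3, against 5.65%, 5.10% and 9.21% in control libraries 1 to 3. Except in control 3, whose 95% Wilson interval of 8.16% to 10.4% lay above those of the other 5 libraries, these shares had overlapping intervals, which cover counting error only.

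KRT83, the third type II hair keratin of this block (ENSG00000170523; chr12:52314301-52321398, minus strand), was close to the limit of detection. It had 17, 30 and 31 reads in knockdown libraries 1 to 3 and 10, 12 and 30 in control libraries 1 to 3, or 0.935, 1.31 and 1.19 CPM against 0.438, 0.517 and 1.15 CPM. Control 3 reached the range of the knockdown libraries, so the groups overlapped. The log2 fold change of 0.70 had an SE of 0.54, and it was 1.25 without control 3.

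KRT34, a type I keratin of the hair cortex (ENSG00000131737; chr17:41377650-41382403, minus strand), did not pass the count filter. Its counts were 6, 9 and 1 reads in knockdown libraries 1 to 3, against 4, 8 and 15 in control libraries 1 to 3. The mean was 0.254 ± 0.189 CPM after knockdown and 0.365 ± 0.201 CPM in controls (SD, n = 3 each), so the group difference was smaller than the spread within each group. In a fit with no count filter the log2 fold change was -0.54, opposite in sign to those of the other members, and it was -0.78 and -0.91 in the fits without knockdown 1 and without control 1, where the gene passed the filter.

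KRTAP2-3 (ENSG00000212724; chr17:41059240-41060114, minus strand) encodes a cysteine-rich, high-sulfur matrix protein of the hair shaft. It had 1166, 1266 and 2005 reads in knockdown libraries 1 to 3 and 382, 357 and 548 in control libraries 1 to 3. These were 64.1, 55.4 and 77.0 CPM after knockdown and 16.7, 15.4 and 21.0 CPM in controls. No knockdown value came near a control value, and the spread within either group was small beside the gap between them. The means were 65.5 ± 10.9 CPM after knockdown and 17.7 ± 2.95 CPM in controls (SD, n = 3 each), with a log2 fold change of 1.89 (SE 0.16).

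KRTAP2-4 (ENSG00000213417; chr17:41065116-41065879, minus strand) is its neighbour, separated by 5001 bases, and encodes a protein of the same subfamily. It stood at 8.41, 8.44 and 10.2 CPM in knockdown libraries 1 to 3, and at 1.58, 2.799 and 4.11 CPM in control libraries 1 to 3. The groups did not overlap, although the controls spread widely. The log2 fold change was 1.67 (SE 0.30), and it ranged from 1.35 to 2.03 when single libraries were left out. As a share of the reads of the pair, KRTAP2-4 took 11.6%, 13.2% and 11.7% in knockdown libraries 1 to 3, against 8.61%, 15.4% and 16.3% in control libraries 1 to 3. The knockdown shares lay inside the range of the control shares. Because the genes are so alike, their sum is firmer than either value: 74.5 ± 11.8 CPM after knockdown and 20.5 ± 3.98 CPM in controls (SD, n = 3 each). The sum does not settle how reads shared with KRTAP2-1 and KRTAP2-2 were counted.

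Across the group, 4 of the 6 members (KRT81, KRT86, KRTAP2-3 and KRTAP2-4) were higher in every knockdown library than in every control library, a pattern that 15.5% of the 14649 tested genes showed. Since the members were chosen on this contrast, nothing is read from that count. Ordered by log2 fold change among the tested genes, with 1 as the largest rise, KRTAP2-3 stood at 158, KRTAP2-4 at 215, KRT81 at 248, KRT86 at 517 and KRT83 at 1656. Over the 14649 genes the median was 0.03 on the same scale, and 0.12 with no scaling factor.

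**Figure D1:**
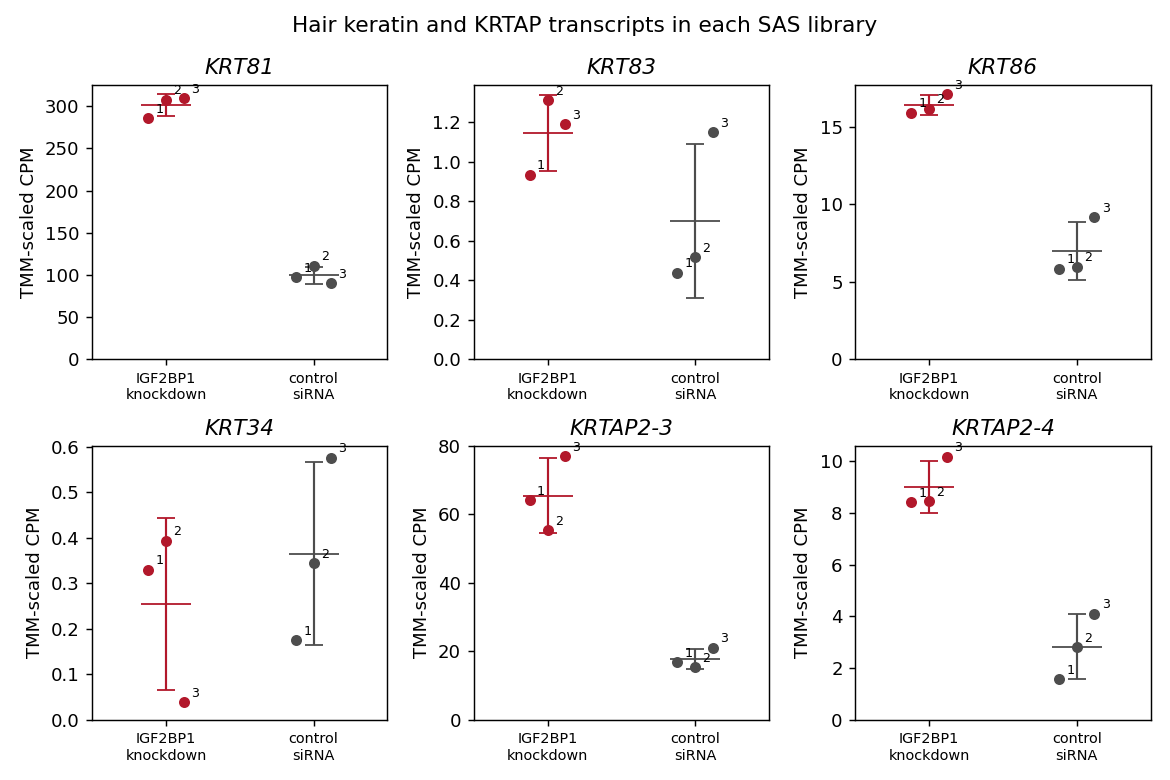
TMM-scaled CPM of each of the 6 genes in the 3 IGF2BP1 knockdown libraries (left, red) and the 3 control siRNA libraries (right, grey), numbered by replicate, with the mean and SD as bars. KRT81, KRT86, KRTAP2-3 and KRTAP2-4 separate the groups, while KRT83 and KRT34, with means of at most 1.15 CPM, do not.

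Levels of different keratins were compared per kilobase of the deposited gene length. On this scale KRT81 stood at 156 ± 6.79 CPM per kb after knockdown and 51.5 ± 5.40 CPM per kb in controls (SD, n = 3 each). Among 54 keratin genes this was rank 7 in each knockdown library and rank 10 in each control library. Per kilobase, KRT81 lay above KRT5, the basal type II keratin, in 3 of 3 knockdown libraries. KRT5 was at 115 ± 7.95 CPM per kb after knockdown and at 867 ± 56.5 CPM per kb in controls. Before division by length KRT5 was the higher after knockdown, at 477 ± 32.9 CPM against 301 ± 13.1 CPM for KRT81. Their order therefore rests on the deposited lengths, 4133 bases for KRT5 and 1929 for KRT81. After knockdown KRT80 was at 68.7 ± 8.28 CPM per kb but at 300 ± 36.1 CPM, close to KRT81. The rank of KRT81 thus also rests on the deposited lengths. KRT86 followed at 6.75 ± 0.26 CPM per kb after knockdown and 2.87 ± 0.77 CPM per kb in controls. Its rank was 14 in all 6 libraries, so its level was higher after knockdown while its place in the order of keratins was the same.

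**Figure D2:**
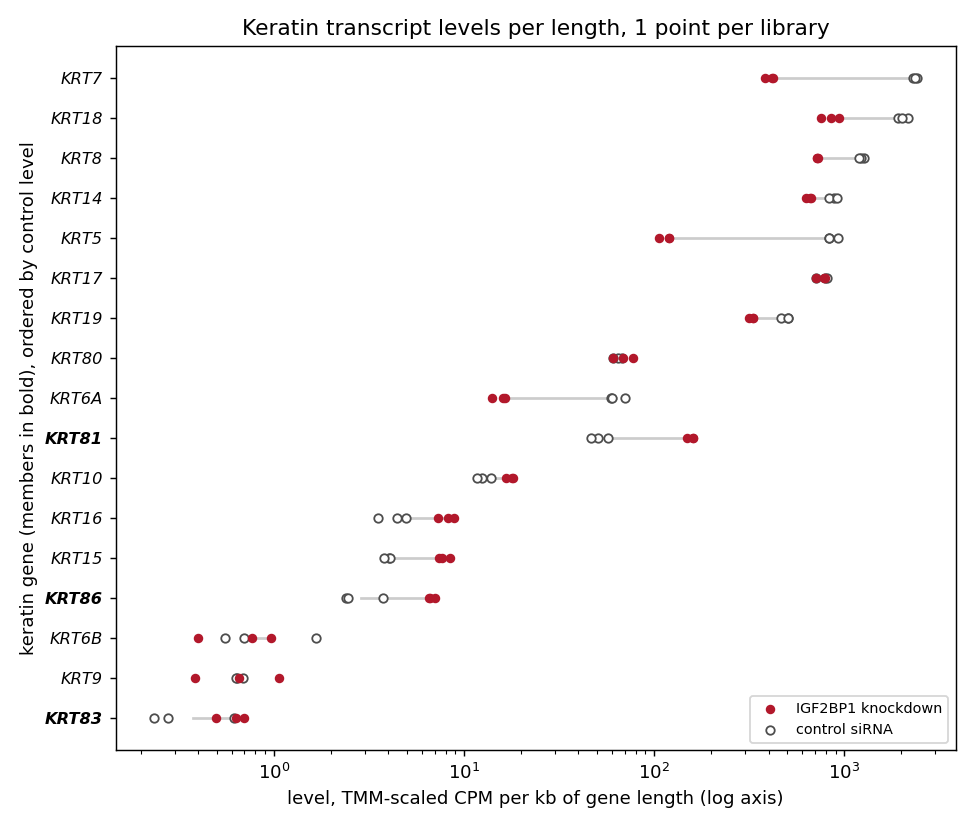
Level of each keratin gene of at least 0.5 CPM per kb in either group mean, on a log axis, with 1 point per library (filled red, IGF2BP1 knockdown; open grey, control siRNA) and a grey line between group means. KRT81 moves right, to 156 CPM per kb, past KRT5, which moves left to 115 CPM per kb. Their order after knockdown rests on the deposited gene lengths, and in CPM KRT5 stays above KRT81.

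Several abundant keratins of simple and basal epithelium fell. Of 17 tested epithelial keratins 7 fell and 3 rose by edgeR, beside 6.66% of all tested genes called lower and 6.27% called higher (975 and 918 genes, or 768 and 1319 with no scaling factor). KRT5 (log2 fold change -2.91), KRT7 (-2.53), KRT6A (-2.02) and KRT18 (-1.26) had the largest falls, KRT8 fell by 0.77, and KRT15 (0.99), KRT16 (0.92) and KRT10 (0.47) rose. The call of KRT10 was lost without knockdown 1, knockdown 3, control 2 or control 3 (adjusted p of 0.0555 to 0.110). KRT8 had the highest CPM of all keratins when averaged over the 6 libraries, but in controls it stood at 8460 CPM, below KRT7 at 9425 CPM. Several of these genes have near-identical copies, and their values carry that uncertainty. KRT7 is the upstream neighbour of KRT86, and the annotated span of KRT86 overlaps that of KRT7 on the same strand and that of KRT81 on the opposite strand. The exons of KRT86 share 0 bases with those of KRT7 and 0 with those of KRT81. A pseudogene, ENSG00000285102, covers 5.26% of the exon bases of KRT86 and had 0 reads in all libraries, and an antisense gene, ENSG00000257829, covers 1.34% and had at most 11 reads in a library. A second antisense gene, ENSG00000257830, covers 2.01% and had 0 reads.

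Within each library, the share of all keratin reads that came from KRT81, KRT83, KRT86 and KRT34 does not depend on scaling between libraries. That share was 1.96%, 2.27% and 2.17% in knockdown libraries 1 to 3, against 0.295%, 0.359% and 0.301% in control libraries 1 to 3. The groups were far apart, with a ratio of means of 6.70. The summed level of all keratins was 14965 ± 568 CPM after knockdown and 33766 ± 1242 CPM in controls (SD, n = 3 each), so both a higher level of the hair keratins and a lower level of the rest entered the share. With KRT7 and KRT5 left out of the total, the share was 2.48 ± 0.178% after knockdown and 0.518 ± 0.0580% in controls, a ratio of 4.79.

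**Figure D3:**
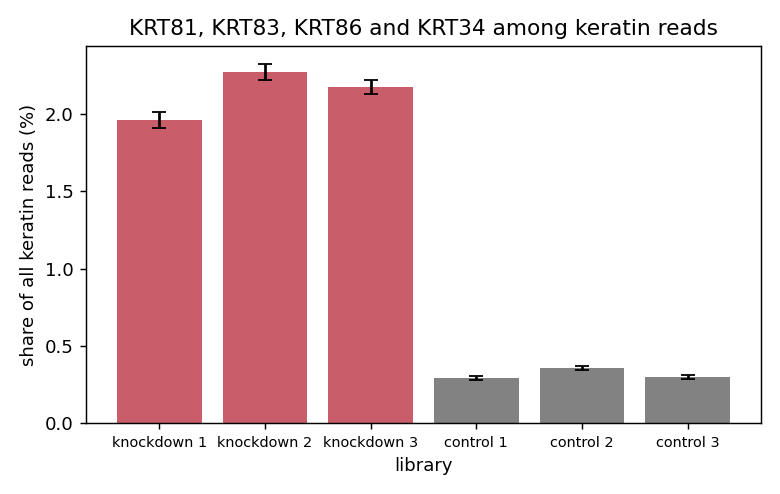
Share of all keratin reads that belonged to KRT81, KRT83, KRT86 and KRT34, in percent, for each library, with 95% Wilson intervals that cover counting error only. Knockdown libraries lie between 1.96% and 2.27%, control libraries between 0.295% and 0.359%.

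Type I hair keratins, the partners that hair filaments need, were nearly absent in both groups. Summed over 11 genes they reached 0.769 ± 0.171 CPM per kb after knockdown and 0.325 ± 0.106 CPM per kb in controls, while the type II hair keratins summed to 163 ± 7.02 and 54.7 ± 4.72 CPM per kb (SD, n = 3 each). KRT31, a type I cortex keratin, had 4, 5 and 15 reads in knockdown libraries 1 to 3, against 1, 2 and 4 in control libraries 1 to 3. KRT32, a cuticle keratin, had 3, 16 and 10 reads against 5, 0 and 0, and KRT36 had 3, 6 and 7 reads against 0, 0 and 0. These counts are too small for a fold change. The early hair matrix keratins KRT85 and KRT35 had 0 reads in all 6 libraries, so the transcripts present were not a full hair keratin set.

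The other genes of the family were read from the same fit over all genes. The table holds 105 hair keratin and KRTAP genes besides the members, of which 86 had 0 reads in all libraries, 19 had at least 1 read and 4 passed the count filter. All 4 are KRTAP genes. KRTAP4-8, KRTAP1-5 and KRTAP3-1 passed the filter only through the knockdown libraries: each reached its cutoff of 0.42 CPM in all 3 of those, but in 2, 0 and 2 control libraries. Admission in this way favours genes that are higher after knockdown, although it does not force a difference. The 2 genes called higher and 0 called lower among the 4 are therefore given as a description. Nothing is read from them against the 6.27% of all tested genes called higher. KRTAP4-1 alone reached the cutoff in all 3 control libraries.

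KRTAP4-8, which encodes an ultra-high-sulfur matrix protein, was higher after knockdown. It had 70, 42 and 77 reads in knockdown libraries 1 to 3, against 15, 4 and 16 in control libraries 1 to 3, a log2 fold change of 2.56 (SE 0.50, edgeR adjusted p = 0.00254). KRTAP1-5, a high-sulfur matrix protein gene, had 21, 12 and 51 reads in knockdown libraries 1 to 3, against 2, 0 and 7 in control libraries 1 to 3, a log2 fold change of 3.26 (SE 0.86, edgeR adjusted p = 0.0177). In both genes every knockdown library lay above every control library. Both passed the filter only through the knockdown libraries, so their calls and adjusted p-values are given as a description. The call of KRTAP1-5 was lost without knockdown 3 (adjusted p = 0.142), control 1 (adjusted p = 0.0646) or control 2 (adjusted p = 0.0587), and its log2 fold change was 4.62 without control 3.

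KRTAP3-1 had 24, 29 and 69 reads in knockdown libraries 1 to 3 and 7, 15 and 21 in control libraries 1 to 3. Its groups did not overlap, but with a log2 fold change of 1.57 (SE 0.52) it was not called (edgeR adjusted p = 0.0566). It too passed the filter only through the knockdown libraries, so its adjusted p-values are given as a description. It passed the threshold with DESeq2 (adjusted p = 0.0406), with no count filter (0.0440), with no scaling factor (0.0479), with the replicate block (0.0380) and without knockdown 2 (0.0457), and missed it in the other 7 alternatives (up to 0.306). KRTAP4-1 had 44, 83 and 54 reads against 52, 21 and 51, the groups overlapped, and it was not called (log2 fold change 0.66, 95% interval -0.19 to 1.503, edgeR adjusted p = 0.333). Below the filter, KRTAP4-9 had 5, 14 and 10 reads in knockdown libraries 1 to 3 and 7, 0 and 0 in control libraries 1 to 3. KRTAP2-2 had 7, 2 and 7 reads against 1, 1 and 0, and KRTAP4-7 had 1, 6 and 3 reads against 0, 0 and 0.

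**Figure D4:**
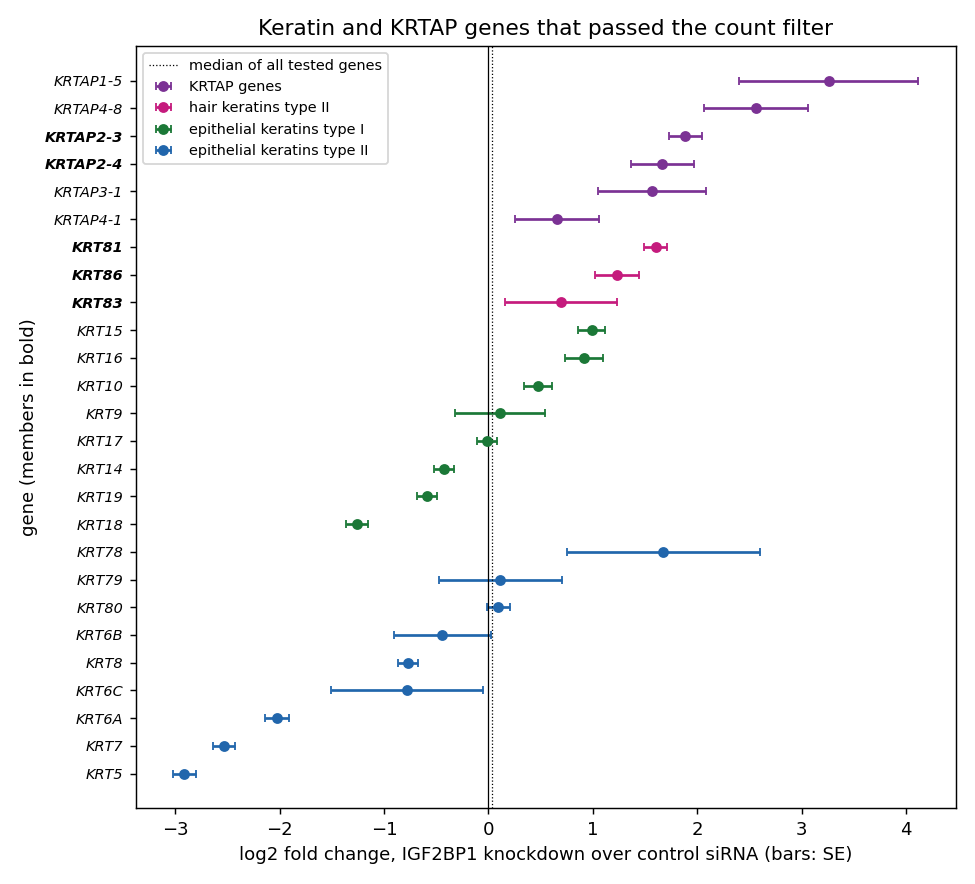
Log2 fold change, IGF2BP1 knockdown over control siRNA, of the keratin and KRTAP genes that passed the count filter, with SE as bars and colours by class; members are in bold and the dotted line is the median of all tested genes. KRTAP genes and type II hair keratins lie right of 0, from 0.66 to 3.26, and the epithelial type II keratins KRT8, KRT6A, KRT7 and KRT5 lie left of it, down to -2.91. Of the epithelial type II keratins that were not called, KRT78 (1.68, SE 0.93), KRT79 (0.11) and KRT80 (0.09) lie right of 0. KRT6B (-0.44) and KRT6C (-0.78), also not called, lie left of it.

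The KRTAP reads came from a single chromosome. On chromosome 17, 13 of 34 protein-coding KRTAP genes had reads and 9 had at least 10, while 0 of 11 on chromosome 11 and 0 of 49 on chromosome 21 had any. The 13 genes with reads all belonged to the KRTAP1 to KRTAP4 subfamilies, and KRTAP2-3 alone held most of the reads. Other genes of these subfamilies, KRTAP1-1, KRTAP3-3 and KRTAP4-2 among them, had 0 reads in all libraries. KRTAP genes other than the members summed to 9.56 ± 0.979 CPM after knockdown and 3.12 ± 1.06 CPM in controls (SD, n = 3 each), a ratio of 3.07, next to 3.63 for KRTAP2-3 and KRTAP2-4 together. Genes at the far end of the cluster, from KRTAP9-1 to KRTAP17-1, were at 0 reads throughout.

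**Figure D5:**
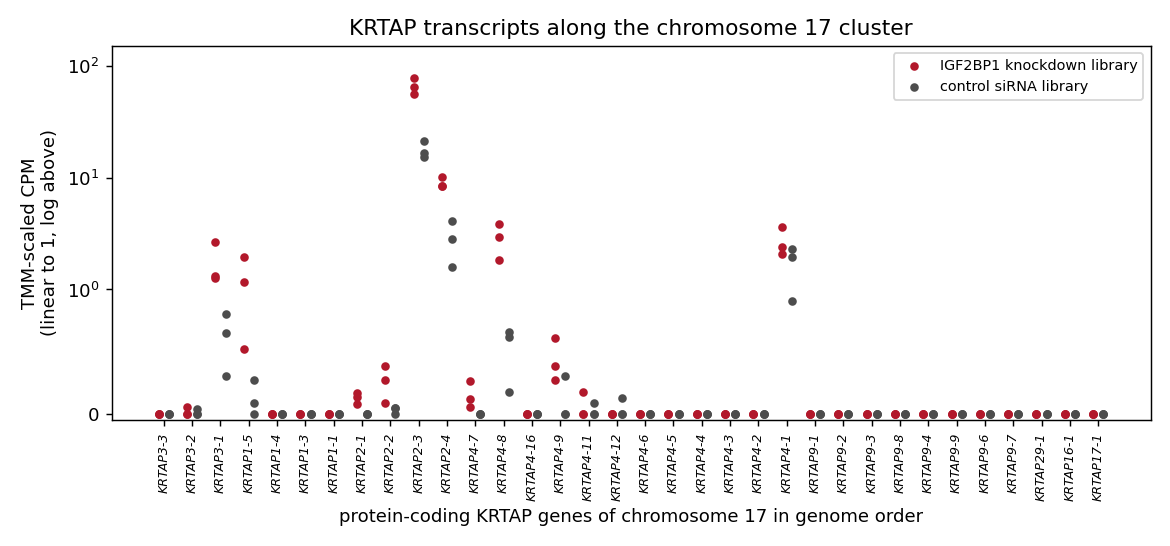
TMM-scaled CPM of the 34 protein-coding KRTAP genes of chromosome 17 in genome order, 1 point per library (red, left of each tick, IGF2BP1 knockdown; grey, right, control siRNA), on an axis that is linear up to 1 and logarithmic above. Points above 1 CPM sit only in KRTAP3-1, KRTAP1-5, KRTAP2-3, KRTAP2-4, KRTAP4-8 and KRTAP4-1. KRTAP2-3 is highest, at 55.4 to 77.0 CPM after knockdown and 15.4 to 21.0 CPM in controls. The control points of KRTAP3-1, KRTAP1-5 and KRTAP4-8 all lie below 1 CPM.

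RefSeq promoters (GRCh38.p14) were on hand for 3 of the 6 members, KRTAP2-3, KRTAP2-4 and KRT34. The 250 bases before the annotated start of the KRTAP2 pair are shown because both neighbours were higher after knockdown; runs of at least 12 bases found in both are in capitals. They lie at chr17:41060115-41060364 (KRTAP2-3) and chr17:41065880-41066129 (KRTAP2-4), both on the minus strand.
KRTAP2-3: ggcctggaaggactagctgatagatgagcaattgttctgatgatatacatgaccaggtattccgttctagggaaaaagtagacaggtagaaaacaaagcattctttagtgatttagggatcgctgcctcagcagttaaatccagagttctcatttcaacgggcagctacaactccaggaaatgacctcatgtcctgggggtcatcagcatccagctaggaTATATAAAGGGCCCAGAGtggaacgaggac
KRTAP2-4: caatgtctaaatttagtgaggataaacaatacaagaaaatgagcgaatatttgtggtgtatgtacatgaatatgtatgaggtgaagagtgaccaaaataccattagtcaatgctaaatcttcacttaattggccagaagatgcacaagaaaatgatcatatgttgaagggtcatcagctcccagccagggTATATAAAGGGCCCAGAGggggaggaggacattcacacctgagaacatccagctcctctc
A single run of 18 bases is shared, and it holds the TATA element TATAAA, which begins 28 bases before the annotated start in KRTAP2-3 and 58 bases before it in KRTAP2-4. Searched on both strands, TATAAA occurs in 10.7% of 35116 RefSeq promoters of the same length and in 78.8% of the 80 KRTAP promoters among them. The core motifs of TEAD factors (CATTCC, in 11.9% of all promoters) and of AP-1 (TGANTCA, in 6.57%) had no match in these windows of KRTAP2-3, KRTAP2-4 or KRT34, which says only that these letters are not in this window.

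Genes known for control of hair shaft differentiation were tested in the same fit. Of 12 tested regulators 0 rose and 0 fell by edgeR, beside 12.9% of all tested genes called in either direction, with a median log2 fold change of -0.06. At an unadjusted p under 0.05, which 25.7% of all tested genes met, there were 2, RUNX1 (higher, 0.32) and HOXC13 (lower). HOXC13, a homeobox factor that activates hair keratin genes in the hair matrix, stood at 10.4 ± 1.69 CPM after knockdown and 15.7 ± 2.13 CPM in controls (SD, n = 3 each; log2 fold change -0.59, edgeR adjusted p = 0.0546). It passed the threshold as a fall with DESeq2 (adjusted p = 0.0220), RLE scaling (0.0464), no count filter (0.0371) and the replicate block (0.0240). It missed the threshold in the other 9 alternatives, with limma-voom (0.0580), the stricter filter (0.0523), no scaling factor (0.0871) and each single library left out (0.0520 to 0.171). OVOL1 was the regulator with the highest level, and GATA3, LEF1 and FOXN1 did not pass the count filter. MSX2 had 0 reads in all libraries. Of 8 tested structural and adhesion genes of hair and root sheath, 0 rose and 1, the desmosomal plakophilin gene PKP1, fell (149 ± 23.5 CPM after knockdown and 194 ± 4.39 CPM in controls, SD, n = 3 each; edgeR adjusted p = 0.0424), beside 6.66% of all tested genes called lower. The call of PKP1 was lost with no scaling factor (adjusted p = 0.0750) and without any single library other than knockdown 1 (adjusted p of 0.0606 to 0.110). The 7 tested genes not called were TGM1, PADI1, PADI3, S100A3, DSC3, DSG3 and LIPH. S100A3 was at 13.3 ± 1.43 CPM after knockdown and 15.1 ± 0.762 CPM in controls (SD, n = 3 each). Of all 18 listed hair shaft and sheath genes, 5 had 0 reads in all libraries (TCHHL1, TGM3, SELENBP1, DSG4 and CRYM). No root sheath keratin passed the count filter.

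Genes with the most similar profile over the 6 libraries were found by the root mean square difference of centred log2 CPM, over 14614 tested genes outside the keratin and KRTAP families. Nearest to KRT81 were the long noncoding RNAs ENSG00000260877 (difference 0.09 on the log2 scale) and ENSG00000289153 (0.11), and FAM181B (0.13). Nearest to KRT86 were DGKG (0.08), PLAAT4 (0.13) and SMIM29 (0.13). TMEM45A (0.12), PTGS1 (0.14) and FAM88B (0.11) were nearest to KRTAP2-3, and VSTM5 (0.13), FAM88B (0.24) and HTR7 (0.24) to KRTAP2-4. Some of these profiles rest on few reads: the control means were 0.147 CPM for VSTM5, 0.227 CPM for HTR7 and 0.233 CPM for FAM88B. TMEM45A, ENSG00000289153 and DGKG were also low, with control means of 0.416, 0.419 and 0.640 CPM. Between members, the difference was 0.29 for KRT81 and KRTAP2-3, 0.33 for KRT81 and KRT86 and 0.34 for KRTAP2-3 and KRTAP2-4. Of the 14649 tested genes, 103 were closer to KRT81 than KRTAP2-3 was, and 173 were closer to it than KRT86 was. For KRTAP2-3, 58 were closer than KRTAP2-4 was. The genes named above were picked as the nearest of 14614, so nothing is read from their being closer than the members. Most of each profile is the difference between the groups, which is how the members were chosen.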

How the data were processed

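The values are raw counts of reads assigned to each gene, as the authors deposited them, beside a gene length in bases. Per the submitters' processing notes, cutadapt 2.8, HISAT2 2.1.0, SAMtools 1.10, featureCounts 2.0.0 and hg38 were used. Which annotation release, strand setting and handling of multi-mapping reads applied is not stated in the sources used here; per the labels' protocols the libraries were strand-marked (dUTP). Columns were matched to samples by library name, and 0 columns were left unused. Genes were kept with filterByExpr (minimum count 10, minimum total 15) and tested with edgeR 4.0.16 (R 4.3.3): TMM scaling, robust glmQLFit, glmQLFTest, 2 groups, no covariate, Benjamini-Hochberg adjustment over 14649 genes, threshold 0.05. The SE of a log2 fold change is its size over the root of its quasi-F statistic. The fit was tested on simulated data. Replicates differed beyond sampling noise (chi-square per degree of freedom 14.6 to 36.2), so none was counted as a copy. GENCODE release 29 (GRCh38, which is hg38) gave coordinates and transcripts.

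The members and lists were chosen with earlier results of these data known. Named genes were the members, IGF2BP1, family genes with at least 10 reads, up to 4 called genes per direction and list with its most abundant gene, genes overlapping a member in exons, and the 3 nearest profiles of each member of at least 5 CPM. HOXC13, RUNX1, CDH1, the fibroblast markers and the genes named as at 0 reads, below the filter or not called in the lists were chosen after their values were seen. As alternatives the scaling was set to RLE or to none, the count filter was dropped or raised to 5 CPM in 3 libraries, a replicate block was added, and the other fits were DESeq2 1.42.0, limma-voom 3.58.1 and leaving out each library.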

Additional observations from a re-analysis of the deposited data

How the results depend on the processing

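The log2 fold changes of KRT81, KRT86, KRTAP2-3, KRTAP2-4 and KRT83 kept their sign in each alternative that fitted them, and outside the fits without a library each moved by less than the spread between replicates; for KRT81 the range was 1.58 to 1.69. Leaving out single libraries gave 1.52 to 1.67 for KRT81, 1.08 to 1.46 for KRT86, 1.75 to 2.01 for KRTAP2-3, 1.35 to 2.03 for KRTAP2-4 and 0.42 to 1.25 for KRT83, whose highest value came without control 3. KRT34 passed the filter in 2 of the fits without a library, and KRT83 had no value under the stricter filter. The ratio of the share of keratin reads was 6.70, 4.79 with KRT7 and KRT5 left out, and 6.46 to 7.16 without single libraries. Of family genes outside the members, 2 that passed the filter only through the knockdown libraries were called higher, 0 with the stricter filter, which removes them, and 1 to 3 without single libraries. Of the hair regulators and hair shaft genes, 1 was called lower, against 3 with DESeq2, 3 with no count filter, 2 with RLE scaling, 2 with the replicate block and 0 with no scaling factor, and 0 to 1 without single libraries; the cause was not tested. Over all genes 1893 were called, 918 of them higher; without single libraries the totals were 1231 to 1948 and 529 to 828. Same-numbered libraries had correlations of their deviations of 0.18, 0.09 and -0.07, against -0.23 to 0.17 for libraries of different number. With 3 libraries per group these values cannot settle whether the numbers pair the libraries. With the replicate block 2431 genes were called. Depth limits KRT83, KRT34 and the family genes below the filter, where a few reads decide each value.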
